A study of Solanum lycopersicum with 36 samples.

Results

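LOC101258345, LOC101258926 and LOC101258632 are 3 tomato genes that carry a single protein name, probable xyloglucan endotransglucosylase/hydrolase protein 23, and that the study lists together under brassinosteroid (BR) signalling. They were chosen by their gene IDs, 101258345, 101258926 and 101258632, and they are 3 of the 32246 genes in the deposited table and 3 of the 20090 genes that passed the filter on low values. The study named them for a higher level in the grafted seedlings (GSs) after salt, on these same libraries, so their difference between GSs and nongrafted seedlings (NGSs) here is no independent evidence of that direction. RNA came from leaves of GSs, in which the salt-sensitive variety Zhongza 9 was split-grafted onto the salt-tolerant rootstock QZ-006, and of NGSs, which the labels call self rooted. Leaves were taken at 0 h, before salt, and after 6, 12, 24, 48 and 96 h in 175 mM NaCl in hydroponic culture, with 3 biological replicates for each type of seedling and time, which gave 36 libraries in 12 groups. No library came from unsalted leaves after 0 h, so the effect of salt and the effect of time in culture cannot be told apart.

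Xyloglucan endotransglucosylase/hydrolases (XTHs) act in the plant cell wall, where they cut xyloglucan chains that tether cellulose and join the cut ends to other chains or to water. This remodelling lets walls loosen or stiffen as cells expand, and XTH genes form large families in plants. In Arabidopsis, the touch-induced XTH gene TCH4 responds to BRs, and pathway maps place it at the end of the BR signalling chain, after the receptor BRI1, its partner BAK1, the kinase BIN2 and the transcription factors BZR1 and BES1.

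Values are FPKM, fragments on a gene scaled to its length and to the size of the library, and a call required a log2 fold change of at least 1 on the log2(FPKM + 1) scale and a false discovery rate (FDR) under 0.05 in limma. The libraries had 15229640 to 26661418 reads on genes, and values stand in the order of the replicate numbers in the labels. These numbers run on over the salt times, so that the second library is number 2 at 6 h, number 5 at 12 h and number 8 at 24 h. The leaf markers (RBCS, RCA, CAB and LHC genes, 19 of 21 in the table) summed to between 12991 and 92184 FPKM in the GS libraries and between 9545 and 101285 FPKM in the NGS libraries. The 3 pollen markers summed to at most 0.804 FPKM in any library, and of the 3 fruit ripening markers, E8 and PG2 averaged at most 0.0169 FPKM in any group, while MSRA averaged 7.33 to 91.6 FPKM. In leaf RNA as a whole, fewer cells that express a gene and less RNA of it per cell cannot be told apart.

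LOC101258345 was almost silent in the GSs before salt and was among the more abundant leaf transcripts after 96 h. At 0 h, it had 0.822, 0.160 and 0.0514 FPKM in the GSs and 2.97, 1.73 and 2.38 FPKM in the NGSs. At 6 h, it had 1.21, 6.92 and 0.631 FPKM in the GSs and 0.292, 5.32 and 0 FPKM in the NGSs, where 3 reads would have been 0.130 FPKM. A single library of each type, the one numbered 2, was therefore several times above the other 2 at 6 h. At 12 h, the GSs had 0.160, 4.55 and 0.0928 FPKM and the NGSs 0.171, 2.98 and 0.151 FPKM. At 24 h, the GSs had 1.12, 1.17 and 0.267 FPKM and the NGSs 0.281, 0.950 and 0.430 FPKM. Again the second library was the highest, and at 12 h it was far above the other 2. At 48 h, the GSs had 12.9, 8.95 and 26.5 FPKM and the NGSs 3.19, 0.942 and 2.81 FPKM. At 96 h, the GSs had 65.5, 86.0 and 73.2 FPKM and the NGSs 22.1, 50.9 and 54.3 FPKM. All 3 GS libraries lay above all 3 NGS libraries at 48 h and at 96 h, and below them at 0 h. The mean at 96 h, 74.9 ± 10.4 FPKM in the GSs and 42.4 ± 17.7 FPKM in the NGSs (SD, n = 3 each), lay at the 90.4th percentile of the genes tested in the GSs and at the 84.3rd percentile in the NGSs.

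LOC101258926 followed the same course. At 0 h, it had 0.747, 0.232 and 0.0992 FPKM in the GSs and 2.17, 2.23 and 2.23 FPKM in the NGSs. At 6 h, it had 0.247, 5.88 and 0.0812 FPKM in the GSs and 0.201, 4.58 and 0.167 FPKM in the NGSs. At 12 h, it had 0.426, 4.99 and 0.0448 FPKM in the GSs and 0.198, 4.13 and 0.0872 FPKM in the NGSs. The NGS libraries of 0 h hardly differed from each other, whereas at 6 and 12 h a single library of each type carried nearly all of the signal. At 24 h, the GSs had 1.501, 1.201 and 0.294 FPKM and the NGSs 0.427, 3.96 and 0.691 FPKM. At 48 h, the GSs had 13.9, 10.5 and 22.6 FPKM and the NGSs 4.67, 2.86 and 5.90 FPKM. At 96 h, the GSs had 60.7, 87.4 and 81.8 FPKM and the NGSs 19.7, 34.2 and 51.3 FPKM. The GS libraries lay below the NGS libraries at 0 h and above them at 48 and 96 h, as for LOC101258345. Of the 3 genes, LOC101258926 alone had NGS libraries of 48 h that all exceeded those of 0 h, which held in 27.4% of all genes tested.

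LOC101258632 had the highest level of the 3 before salt. At 0 h, it had 1.77, 0.270 and 0.297 FPKM in the GSs and 3.44, 5.12 and 6.22 FPKM in the NGSs. At 6 h, it had 1.02, 5.73 and 0.162 FPKM in the GSs and 0.241, 5.78 and 0.0832 FPKM in the NGSs. At 12 h, it had 0.463, 6.41 and 0.223 FPKM in the GSs and 0, 5.34 and 0.145 FPKM in the NGSs, where 3 reads would have been 0.0986 FPKM. Except in the second library, the NGSs had thus less of it at 6 and 12 h than in any library of 0 h. At 24 h, the GSs had 2.03, 2.73 and 0.623 FPKM and the NGSs 0.155, 2.30 and 0.655 FPKM. At 48 h, the GSs had 21.7, 20.6 and 34.3 FPKM and the NGSs 5.58, 2.27 and 6.41 FPKM. At 96 h, the GSs had 58.8, 72.4 and 101.7 FPKM and the NGSs 16.2, 52.8 and 43.6 FPKM. The GS and NGS libraries did not overlap at 0, 48 and 96 h, in the same directions as for LOC101258345 and LOC101258926.

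**Figure D1:**
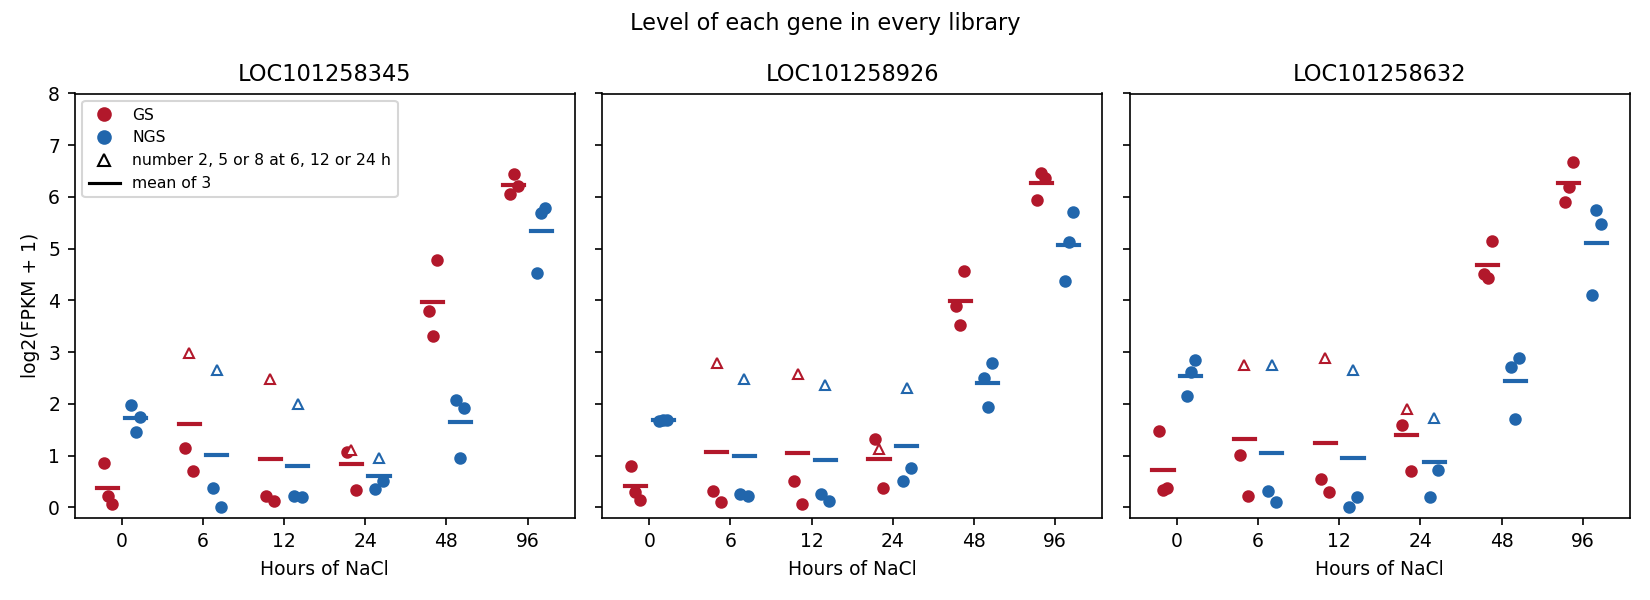
Level of LOC101258345, LOC101258926 and LOC101258632 in each of the 36 libraries, as log2(FPKM + 1) against hours of NaCl, with GS libraries in red to the left of NGS libraries in blue; horizontal bars are the means of 3 libraries, and open triangles mark the library numbered 2 at 6 h, 5 at 12 h and 8 at 24 h. All 3 genes were highest at 96 h, and the GS libraries lay above the NGS libraries at 48 and 96 h and below them at 0 h.

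The order of the 12 groups was alike in the 3 genes at its ends and not in its middle. The GSs at 96 h had the highest mean of each gene, and none of their libraries overlapped those of the NGSs at 96 h, which came next. The NGSs at 96 h and the GSs at 48 h overlapped in LOC101258345, LOC101258926 and LOC101258632. The GSs at 48 h did not overlap the group below them in the order, and the GSs at 0 h had the lowest mean of each gene. From the fourth to the last place, neighbours in the order overlapped, except the NGSs at 48 h and at 0 h in LOC101258926.

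Under salt, the 3 genes were upregulated late in the GSs, at the last 2 times sampled. At 48 h, LOC101258345 was 3.58 ± 0.65 higher than at 0 h on the log2 scale (SE; limma, adjusted p = 0.000188), LOC101258926 was 3.58 ± 0.69 higher (adjusted p = 0.000384) and LOC101258632 was 3.96 ± 0.74 higher (adjusted p = 0.000285). These were 3 of 3 genes called higher, against 7.12% of all genes tested, and their libraries lay above those of 0 h, as did those of 21.6% of all genes tested. At 96 h, the differences were 5.85 ± 0.65 (adjusted p = 5.04e-07) for LOC101258345, 5.85 ± 0.69 (adjusted p = 1.26e-06) for LOC101258926 and 5.53 ± 0.74 (adjusted p = 6.80e-06) for LOC101258632. Here 9.17% of all genes were called higher and 20.4% had all libraries above those of 0 h, and the 3 genes ranked 10, 11 and 18 from the top by log2 fold change among 20090 genes. At 48 h, their ranks were 110, 111 and 76. The mean FPKM at 96 h was 217 times, 213 times and 99.8 times that at 0 h for LOC101258345, LOC101258926 and LOC101258632, but the GS libraries of 0 h held only 1 to 17 reads of LOC101258345, 2 to 16 of LOC101258926 and 6 to 38 of LOC101258632. The pseudocount therefore makes the log2 differences smaller than these ratios.

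The GSs did not show a called change of any of the 3 genes in the first 24 h. The 9 differences of 6, 12 and 24 h from 0 h were between 0.46 and 1.23, with 0 calls in limma, 0 with an unadjusted p under 0.05 and 0 calls by voom on the recovered reads. Of all genes tested, 23.3% were called in either direction at 6 h, 16.4% at 12 h and 7.24% at 24 h. The largest of the 9, LOC101258345 at 6 h, had a 95% interval of -0.10 to 2.55. Without the second library of 6, 12 and 24 h in each type of seedling, an alternative chosen after seeing the data, the differences of LOC101258926 and LOC101258632 at 6 h were -0.20 and -0.11, and those of the 3 genes at 12 h were between -0.31 and -0.13, with 0 calls.

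In the NGSs, the genes were upregulated only at 96 h. LOC101258345 was 3.61 ± 0.65 higher than at 0 h (SE; limma, adjusted p = 0.000117), LOC101258926 was 3.39 ± 0.69 higher (adjusted p = 0.000430) and LOC101258632 was 2.57 ± 0.74 higher (adjusted p = 0.00783). All 3 were called higher, against 9.25% of all genes, and their libraries lay above those of 0 h, as did those of 24.2% of all genes. Their ranks by log2 fold change were 56, 81 and 264 among 20090 genes. With a pseudocount of 0.1, the call of LOC101258632 was lost (2.78, adjusted p = 0.0896). At 48 h, when the GSs had called increases, the differences in the NGSs were -0.08 for LOC101258345, 0.73 for LOC101258926 and -0.10 for LOC101258632, none called, against 23.1% of all genes. With libraries scaled to equal sums, those of LOC101258345 and LOC101258632 changed sign, to 0.0427 and 0.0440.

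From 6 to 24 h, the 9 differences of the NGSs from 0 h all had a negative sign, between -1.65 and -0.49, with 0 calls in limma, 2 with an unadjusted p under 0.05 (LOC101258632 at 12 and 24 h) and 1 call by voom (LOC101258632 at 12 h). Of all genes tested, 25.1% were called at 6 h, 26.9% at 12 h and 26.2% at 24 h. At 24 h, all NGS libraries of LOC101258345 and LOC101258632 were below those of 0 h, as were those of 28.2% of all genes. With all libraries kept, LOC101258632 was also called lower at 12 h with a pseudocount of 0.1 (-3.26, adjusted p = 0.0383), and LOC101258345 and LOC101258632 were called lower at 24 h with only the libraries compared in the fit (adjusted p = 0.0105 and 0.0174). Without the second library of its own group alone, LOC101258632 was called lower at 6, 12 and 24 h (-2.33, -2.44 and -2.07, adjusted p = 0.0155, 0.0106 and 0.0437), and LOC101258345 (-1.55, -1.52 and -1.29) and LOC101258926 (-1.44, -1.49 and -1.05) were not called. All 9 were called lower, with these same differences, only when the second libraries of 6, 12 and 24 h were left out of both types of seedling at once. Those libraries were picked for their values in these 3 genes, so the 9 calls are no independent evidence of a fall.

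The second library stood apart at 6 and 12 h in both types of seedling. In the GSs and NGSs at these times, it had 5.61 to 36.9 times the FPKM of the next library in each of the 3 genes. At 24 h, the ratio was 2.21 to 5.73 in the NGSs and 0.800 to 1.34 in the GSs. Of the 20090 genes tested, 904 (4.5%) were highest in the second library of all 4 groups of 6 and 12 h, and 57 (0.284%) were at least 3 times the next library in all 4, among them LOC101258345, LOC101258926, LOC101258632 and the XTH genes XTH3 and tXET-B2. What sets these libraries apart was not tested.

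**Figure D2:**
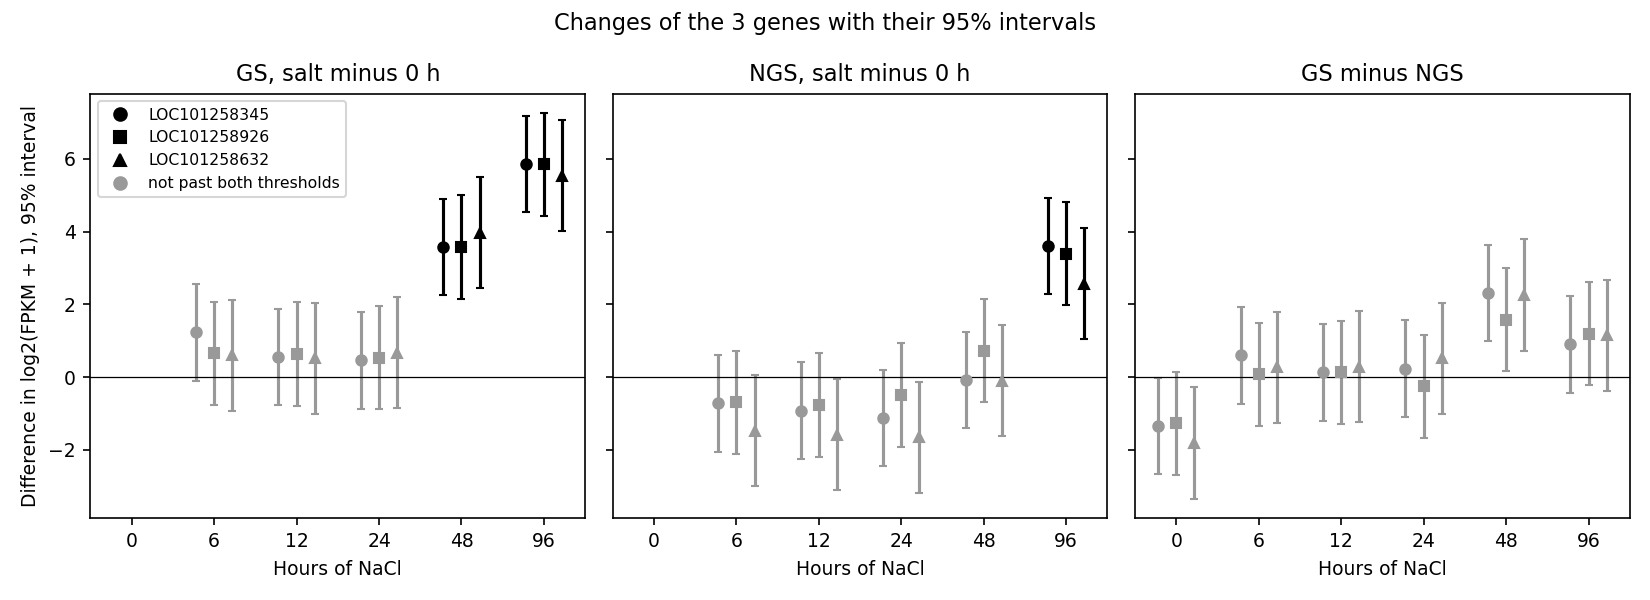
Difference in log2(FPKM + 1) of the 3 genes against hours of NaCl, with 95% intervals from limma, for the GSs against their 0 h, the NGSs against their 0 h, and the GSs against the NGSs at the same time; black symbols are past both thresholds and grey symbols are not. The called differences are those of the GSs at 48 and 96 h, between 3.58 and 5.85, and of the NGSs at 96 h, between 2.57 and 3.61.

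Set against the NGSs at the same time, the GSs had less of the 3 genes before salt and more of them at 48 and 96 h, and none of these differences was called. At 0 h, the difference was -1.35 ± 0.65 for LOC101258345 (SE; limma, adjusted p = 0.168), -1.27 ± 0.69 for LOC101258926 (adjusted p = 0.231) and -1.81 ± 0.74 for LOC101258632 (adjusted p = 0.103). The libraries of 15.3% of all genes lay below in the same way, and 5.07% of all genes were called in either direction. The GS libraries of 0 h held 20795796 to 25070006 reads and the NGS libraries of 0 h 15229640 to 18403172, the lowest totals of any group, and the part of depth in this difference was not tested.

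At 48 h, the log2 difference was 2.31 ± 0.65 for LOC101258345 (SE; limma, adjusted p = 0.191), 1.58 ± 0.69 for LOC101258926 (adjusted p = 0.377) and 2.26 ± 0.74 for LOC101258632 (adjusted p = 0.244). They ranked 17, 179 and 21 from the top among 20090 genes, of which only 0.0498% were called. The mean was 16.1 ± 9.2 FPKM in the GSs and 2.31 ± 1.2 FPKM in the NGSs for LOC101258345, 15.7 ± 6.3 FPKM in the GSs and 4.48 ± 1.53 FPKM in the NGSs for LOC101258926, and 25.6 ± 7.6 FPKM in the GSs and 4.75 ± 2.19 FPKM in the NGSs for LOC101258632 (SD, n = 3 each). In 11.1% of all genes, the GS libraries lay above the NGS libraries as they did in these 3. At 96 h, the differences were 0.90, 1.19 and 1.15 for LOC101258345, LOC101258926 and LOC101258632 (adjusted p = 1 each), in a comparison in which 0.00996% of all genes were called and in which the GS libraries of 7.36% of all genes lay above. At 6, 12 and 24 h, the libraries of GSs and NGSs overlapped in all 3 genes, with differences between -0.25 and 0.60, and 4.40%, 0.0448% and 0.0249% of all genes were called.

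Over the 6 times, limma called 0 of the 18 differences between GSs and NGSs, 5 had an unadjusted p under 0.05 and voom called 0. Leaving out the second libraries of 6, 12 and 24 h gave calls of all 3 genes at 0 and 48 h (adjusted p between 0.00544 and 0.0313) with the same log2 differences, but those libraries were picked for their values in these genes, so nothing is read from these calls. With only the libraries compared in the fit, the 3 genes were called at 0 h (adjusted p = 0.0448, 0.0343 and 0.0465) and not at 48 h.

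The response to salt differed between GSs and NGSs at 48 h in 2 of the 3 genes. The log2 difference from 0 h was 3.66 ± 0.91 greater in the GSs for LOC101258345 (SE; limma, adjusted p = 0.0174) and 4.07 ± 1.05 greater for LOC101258632 (adjusted p = 0.0201), and 2.85 ± 0.98 greater for LOC101258926, which was not called (adjusted p = 0.0671) except in a fit of the libraries compared alone (adjusted p = 0.0112) and in the fit without the second libraries (adjusted p = 0.00120). Of all genes tested, 5.89% were called in this comparison in either direction, and 4.03% in the direction of these. The difference combines the lower level of the GSs at 0 h with their higher level at 48 h, and it has the 0 h libraries in common with the comparisons above. The call of LOC101258345 was lost without NGS library 11 of 48 h (adjusted p = 0.0715) and with voom (adjusted p = 0.0516), and that of LOC101258632 without the same library (adjusted p = 0.0784), without NGS library 3 of 0 h (adjusted p = 0.0512) and with a pseudocount of 0.1 (adjusted p = 0.0703). At 96 h, the differences were 2.25, 2.46 and 2.96 for LOC101258345, LOC101258926 and LOC101258632, with adjusted p between 0.190 and 0.260 and calls in 0.254% of all genes. LOC101258926 was called there in a fit of the libraries compared alone (adjusted p = 0.0372), and LOC101258926 and LOC101258632 without the second libraries (adjusted p = 0.0145 and 0.0248). At 6, 12 and 24 h, 0 of 9 were called by limma or by voom and 2 had an unadjusted p under 0.05, with values between 1.02 and 2.32, against 4.91%, 6.44% and 4.61% of all genes.

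The 3 genes moved together over the study. Over the 12 group means of log2(FPKM + 1), Pearson's r was 0.985 between LOC101258345 and LOC101258926, 0.982 between LOC101258345 and LOC101258632 and 0.986 between LOC101258926 and LOC101258632. These points share the libraries, and the 2 groups of 96 h carry much of the range. Leaving out each group in turn, r stayed between 0.970 and 0.992 over the 3 combinations. At least 1 group of 96 h stayed in each time, so this does not show r without both. Spearman's rho, which uses ranks alone, was 0.881, 0.951 and 0.846 in the same order. Within groups, after the group means were subtracted, r over 36 libraries was 0.947, 0.943 and 0.951 in the same order, and the second libraries of 6 and 12 h share in it.

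Their levels were not a fixed multiple of each other. In the GSs, LOC101258632 made up 40.8 to 66.3% of the summed FPKM of the 3 genes before salt, 41.1 to 51.5% after 48 h and 29.5 to 39.6% after 96 h. In the NGSs, its share was 40.1 to 57.4% before salt and 28.0 to 38.3% after 96 h. At 96 h, when reads were plentiful, no gene of the 3 had less than 24.8% or more than 39.6% of the sum in any library, so the 3 were near equal per length of gene. At 48 h, LOC101258926 had 26.2 to 28.6% of the sum in GS libraries, against 34.8 to 47.2% of it in NGS libraries, and these did not overlap. In the library numbered 8 of the NGSs at 24 h, LOC101258926 had 108 reads, LOC101258632 had 63 and LOC101258345 had 25. These shares were described and not tested, and how the authors' counting treated reads that match more than one of the genes is not given in the sources used here.

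**Figure D3:**
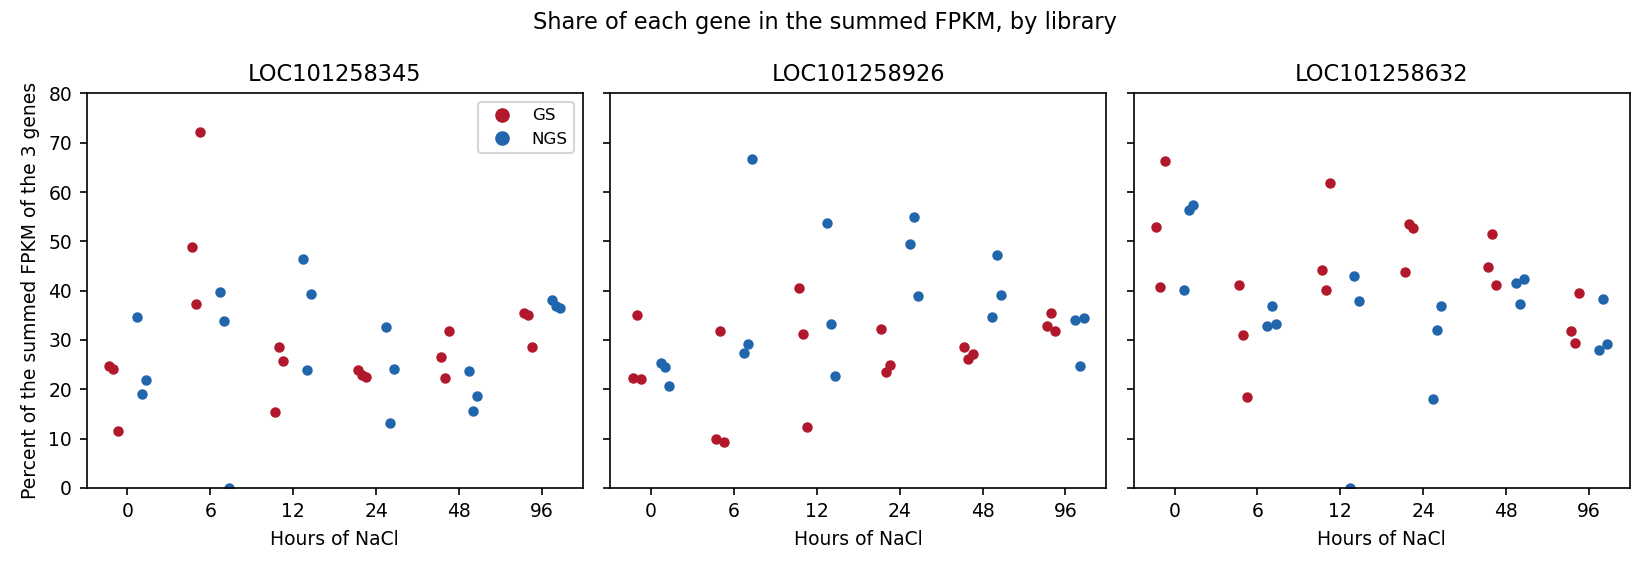
Percent of the summed FPKM of LOC101258345, LOC101258926 and LOC101258632 that each gene made up, by library and hours of NaCl, with GS libraries in red to the left of NGS libraries in blue. The shares scatter where the sum is small, at 0 to 24 h, and lie between 24.8 and 39.6% in each library of 96 h.

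The 3 genes are also near neighbours. In the order of protein-coding genes of the RefSeq annotation of assembly SLM_r2.1, which is not the build of the study and is used for order alone, LOC101258632, LOC101258926 and XTH3 follow each other directly. LOC101258345 lies before them, with LOC101264606, LOC138347643 and LOC101264907 in between. LOC101264606 and LOC101264907 reached at most 0.179 and 0.0127 FPKM in any library and were not tested. On the other side of XTH3, LOC101259222 fell by 1.68 in the GSs at 48 h (limma, adjusted p = 0.00871), by 2.69 in the GSs at 96 h (adjusted p = 0.000132) and by 1.94 in the NGSs at 96 h (adjusted p = 0.00194).

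XTH3, the named XTH gene that the study lists beside them, was the tested gene most like LOC101258926 over the 12 group means (r = 0.986) and the second most like LOC101258345 (r = 0.984). For LOC101258632, it was thirteenth (r = 0.962). In the GSs, XTH3 had 14.2, 10.95 and 32.3 FPKM at 48 h and 74.1, 93.4 and 79.3 FPKM at 96 h, against 0.934, 0.542 and 0.546 FPKM at 0 h. It rose by 3.45 ± 0.89 at 48 h (SE; limma, adjusted p = 0.00494) and by 5.64 ± 0.89 at 96 h (adjusted p = 4.44e-05). In the NGSs, it rose by 3.82 ± 0.89 at 96 h (adjusted p = 0.00140), with 20.9, 38.3 and 82.3 FPKM against 3.10, 1.55 and 1.41 FPKM at 0 h. The difference of XTH3 between the responses of GSs and NGSs at 48 h was 2.44 ± 1.26 and was not called (adjusted p = 0.217).

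By the same measure, the other genes among the 5 most like each of the 3 were LOC101253047 (r = 0.976) and LOC104645999 (r = 0.974) for LOC101258345. For LOC101258926, they were the ethylene response factor gene ERF-D5 (r = 0.982) and tXET-B2 (r = 0.976). For LOC101258632, they were LOC101261332 (r = 0.985), LOC101262913 (r = 0.981) and LOC101250742 (r = 0.977). Within groups over 36 libraries, r was 0.949 for tXET-B2 with LOC101258926 and -0.04 for ERF-D5 with it, so the likeness of ERF-D5 lay in the group means alone. The lists of the 100 genes most like each of the 3 had 62 genes in common.

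The 13 other XTH genes tested are those with a symbol or synonym that starts with XTH or XET. XTH genes without such a name, as the 3 genes here, can be missing, so the 13 are not the whole rest of the family. These 13 fell early in part in both types of seedling and showed the late rise in the GSs in part. In the GSs, 23.3%, 16.4% and 7.24% of all genes were called in either direction at 6, 12 and 24 h. Of the 13, 0 rose and 5 fell in the GSs at 6 h, 2 rose and 4 fell at 12 h, and 0 rose and 2 fell at 24 h. In the GSs, 3 then rose and 1 fell at 48 h, and 6 rose and 0 fell at 96 h, where 7.12% and 9.17% of all genes rose, with a median difference of 0.18 at 96 h against -0.04 over all genes. Those that rose at both times were XTH3, tXET-B1 and tXET-B2. tXET-B2 rose by 4.21 ± 1.25 at 48 h (SE; limma, adjusted p = 0.0142) and by 5.94 ± 1.25 at 96 h (adjusted p = 0.000907), and tXET-B1 by 3.51 ± 0.93 (adjusted p = 0.00634) and 4.60 ± 0.93 (adjusted p = 0.000615). At 96 h, XTH9, XTH1 and LOC543916 rose as well, by 3.74, 2.59 and 2.44.

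In the NGSs, 9 of the 13 other XTH genes fell at 6 h and 8 fell at each of 12, 24 and 48 h, while 0 rose. Of all genes tested, 23.1 to 26.9% were called in either direction at these times. At 12 h, the log2 differences were -6.24 ± 0.64 for XTH7 (SE; limma, adjusted p = 7.27e-09), -3.90 ± 0.43 for XET2 (adjusted p = 3.17e-08) and -3.88 ± 0.47 for XTH1 (adjusted p = 1.33e-07). At 12 h, the median of the 13 was -2.20, against 0.00 over all genes. LOC101258345, LOC101258926 and LOC101258632 had negative values between -1.65 and -0.49 from 6 to 24 h, of which none was called with all libraries in the fit. At 96 h, 2 of the 13 rose in the NGSs (XTH3 and XTH1), against 9.25% of all genes, and 2 fell (XTH7 and XET4). Without the second libraries, 4 of the 13 rose.

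Before salt, 5.07% of all genes were called between GSs and NGSs in either direction. Of the 13 other XTH genes, 6 were called lower in the GSs, relative to the NGSs, and 0 were called higher. Their median was -1.501 against -0.02 over all genes. LOC543916 (-2.71 ± 0.45, adjusted p = 0.000403) and XTH9 (-2.57 ± 0.47, adjusted p = 0.000908) had the lowest values. The negative values of LOC101258345, LOC101258926 and LOC101258632 at 0 h had the same sign and were not called. From 6 to 96 h, limma and voom called 0 of the 13 between GSs and NGSs, and 1 to 3 of them had an unadjusted p under 0.05 at each time. Limma called 0.00996 to 4.40% of all genes at these times. The response from 0 to 48 h was higher in the GSs in 6 of the 13, against 4.03% of all genes. These were XTH9, LOC543916, XTH7, XTH1, XET4 and SLXTH15, between 1.65 and 3.71. None of these 6 was called higher in the GSs at 48 h than at 0 h, with values between -0.59 and 0.72. In the NGSs, the mean of each fell from 0 to 48 h, as from 15.3 to 1.03 FPKM for XTH9 and from 188 to 12.2 FPKM for XTH7. Not called in this response were tXET-B2, with the highest value of the 13 (3.91 ± 1.77, limma, adjusted p = 0.161), tXET-B1 (3.34 ± 1.32, adjusted p = 0.109) and XTH3.

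**Figure D4:**
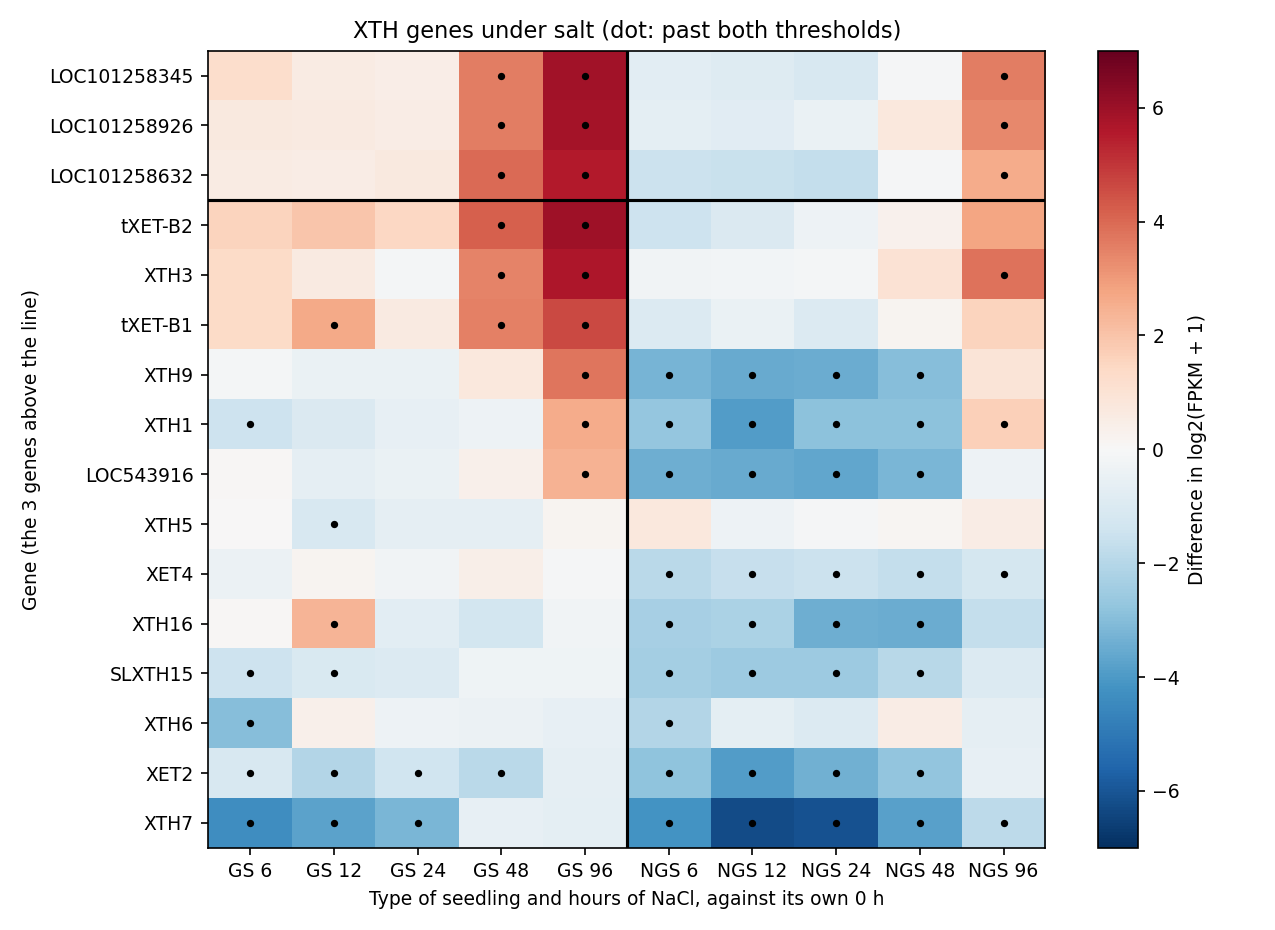
Difference in log2(FPKM + 1) from 0 h of LOC101258345, LOC101258926 and LOC101258632 (above the line) and of the 13 other XTH genes tested (below it, in order of their value in the GSs at 96 h), for the GSs in the left 5 columns and the NGSs in the right 5; dots mark differences past both thresholds. The 3 genes, tXET-B2, XTH3 and tXET-B1 share the rise in the GSs at 48 and 96 h, whereas most genes further down fell in the NGSs from 6 to 48 h.

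None of the 10 BR genes tested, which cover BR synthesis, BR perception and BZR1 but no BIN2 gene, was called higher at 96 h. Over all genes tested, the share called higher at that time was 9.17% for GSs and 9.25% for NGSs. With 10 genes, 0 calls cannot be told apart from such a share. Of these 10, 2 rose in the GSs at 48 h, against 7.12% of all genes, and 0 fell. They were CURL3, the tomato BR receptor gene, which rose by 1.05 (limma, adjusted p = 0.000116), and CYP85A1, a BR biosynthesis gene, which rose by 1.02 (adjusted p = 0.0464). Voom called 1 of the 10 in the GSs at 48 h. CYP85A1 was already called higher in the GSs at 12 h (1.42, limma, adjusted p = 0.00411) and was at 0.63, not called, at 24 h. At 96 h in the GSs, limma and voom called 0 of the 10 and 3 had an unadjusted p under 0.05, with values between -0.55 and 0.84 and a median of 0.04. In the NGSs at 96 h, 1 fell, the receptor-like kinase gene SERK1 (-1.08, adjusted p = 0.000653). Before salt, the GSs had less CYP85A1, relative to the NGSs (-1.79, adjusted p = 0.00287).

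None of the expansin or endoglucanase genes tested was called higher at 96 h. Over all genes tested, the share called higher then was 9.17% for GSs and 9.25% for NGSs. These lists are too short to tell 0 calls apart from such a share. Expansins are proteins that loosen walls without cutting them. Of 11 tested, 0 rose and 1 fell in the GSs at 96 h. At 48 h, 1 rose, against 7.12% of all genes. Early in salt, 4, 3 and 3 of them fell in the GSs at 6, 12 and 24 h and 1 rose, at 12 h, and 7, 6 and 7 fell in the NGSs, where 0 rose. Of all genes, 23.3%, 16.4% and 7.24% were called in either direction in the GSs at these times, and 25.1%, 26.9% and 26.2% in the NGSs. Among the expansins, EXP2 had the lowest value in the GSs at 6 h (-6.89, limma, adjusted p = 1.16e-09). Of 6 endoglucanases, which cut glucan chains, limma and voom called 0 in the GSs at 48 or 96 h, with 0 and 2 at an unadjusted p under 0.05. In the GSs at these times, 7.12% and 9.17% of all genes were called higher. In the NGSs, 3 fell at 12 h and 3 at 24 h, where 26.9% and 26.2% of all genes were called in either direction.

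Of the 5 other hormone genes that the study names beside them, 2 rose after 48 h of salt in the GSs, against 7.12% of all genes. After 96 h, 3 rose, against 9.17% of all genes, and 0 fell at either time. GH3.2 (LOC101246970), an auxin-responsive gene by its RefSeq symbol, is named GH3.1 in the study. It rose at 96 h alone of these times, by 1.97. JAZ2 (LOC100134911), a jasmonate ZIM-domain repressor gene by its RefSeq symbol, is named jasmonate ZIM-domain protein 1 in the study. It rose in the GSs by 2.90 at 48 h (limma, adjusted p = 0.00570) and by 4.32 at 96 h (adjusted p = 0.000151). LOC101247936, named as a TIFY protein of the same jasmonate pathway, rose by 1.84 (adjusted p = 0.00317) and 2.59 (adjusted p = 0.000124) at these times. LOC101253938 and LOC101265384 were not called in the GSs at 48 or 96 h and rose early. In the GSs, they rose by 1.86 and 2.20 at 6 h and by 2.17 and 2.29 at 12 h. In the NGSs at 6 h, they rose by 3.31 and 1.63. Of all genes, 23.3%, 16.4% and 25.1% were called in either direction there. Between GSs and NGSs at 6 h, 1 of the 5 was called, lower in the GSs (-2.63), against 4.40% of all genes. In the response from 0 to 48 h, JAZ2 was the 1 of the 5 called higher in the GSs, by 3.46 (limma, adjusted p = 0.0442), against 4.03% of all genes. Voom called 0 of the 5. These genes were named by the study from these libraries, so their direction here is no independent evidence.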

How the data were processed

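Leaf RNA of the 36 libraries was sequenced by the authors on an Illumina instrument. The methods state that clean reads were mapped to the tomato SL2.0 genome with HISAT, and the submitters' processing notes name HISAT2 2.0.5, featureCounts 1.5.0-p3 and DESeq2 1.16.1. The authors deposited FPKM values, made from reads counted per gene and divided by gene length and library size, and no unit is named beside them. The form of the values gives this unit, since each is a whole number of reads over a length and a library denominator, which equals a median-of-ratios size factor. These reads were recovered for 32246 of 32246 genes. Strandedness and the treatment of reads with several matches are not given in the sources used here.

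The 20090 genes that reached 1 FPKM in 3 or more libraries entered a fit in limma 3.58.1 in R 4.3.3 (lmFit, eBayes with a trend) on log2(FPKM + 1) to 12 group means with 24 residual degrees of freedom. p was adjusted by Benjamini and Hochberg over all genes within each of 21 comparisons, and calls required |log2 fold change| of at least 1 and FDR under 0.05. On this scale, the change of low genes is understated. Voom, a limma test of counts, was run on the recovered reads as an alternative. The recovery of reads and the limma fit were tested on simulated data. Figures were drawn with matplotlib 3.10.9 in Python 3.11.15.

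Same-numbered libraries of GSs and NGSs deviated together at 6 h (correlations of 0.124, 0.411 and 0.428), by a check of the numbers in the labels, and at the other times at least 1 of 3 did not exceed 0.1.

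The genes, the lists and the tests were chosen with earlier results of these data known. Named were the 3 genes, XTH3 and the 5 hormone genes beside them, the 5 genes most like each, and members of the XTH, BR, expansin and endoglucanase lists past the thresholds. LOC101259222 and the other neighbours were named after their values were seen. Symbols and gene order came from RefSeq (SLM_r2.1), with no coordinates or sequences used here.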

Additional observations from a re-analysis of the deposited data

Results flagged for a closer look

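The response from 0 to 48 h of salt differed between GSs and NGSs by a test of the difference itself in LOC101258345 (3.66 greater in the GSs on the log2 scale), in LOC101258632 (4.07) and in the jasmonate repressor gene JAZ2 (3.46). The part of the lower level of the GSs at 0 h, and of the deeper GS libraries at that time, in these values was not tested. Dixon's test for an outlying library was not run, since each group has 3 libraries.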

How the results depend on the processing

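The calls of the 3 genes in the GSs at 48 and 96 h held under every alternative run, and 6 of 15 were called each time, also without each library in turn (6 to 6). In the NGSs, 3 of 15 were called, 5 with only the libraries compared, 12 without the second libraries of 6, 12 and 24 h (picked for their values in these genes), and 3 to 5 without each library in turn. Between GSs and NGSs, 0 of 18 were called, 3 with only the libraries compared, 6 without the second libraries, 6 with the replicate block, and 0 to 0 without each library in turn. Of the response differences, 2 of 15 were called, 1 with a pseudocount of 0.1, 1 with voom, 4 with only the libraries compared, 7 without the second libraries, and 0 to 4 without each library in turn. Spearman's rho over 12 groups was 0.881 for LOC101258345 with LOC101258926, 0.951 for LOC101258345 with LOC101258632 and 0.846 for LOC101258926 with LOC101258632.

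The replicate block is only a shared number at 0 and 48 h, where its 6 calls lie (adjusted p 0.00138 to 0.0240). At 6 h, where same-numbered libraries of GSs and NGSs deviated together, it changed no call, and it changed no other call. The labels state no pairing of these libraries.

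Signs changed in values that were not called. With libraries scaled to equal sums, LOC101258345 and LOC101258632 in the NGSs at 48 h were at 0.0427 and 0.0440, and the median of all genes shifted by up to 0.54. With voom, LOC101258926 at 6 h between GSs and NGSs was at -0.0782. Without the second libraries, LOC101258926 and LOC101258632 in the GSs were at -0.20 and -0.11 at 6 h, and LOC101258345, LOC101258926 and LOC101258632 at -0.21, -0.13 and -0.31 at 12 h. Between GSs and NGSs, LOC101258926 was then at -0.0278 at 6 h and 0.21 at 24 h, and LOC101258345 at -0.0435 at 12 h. Without each library in turn, LOC101258926 and LOC101258632 in the GSs ranged from -0.20 to 1.14 and -0.11 to 1.15 at 6 h, and the 3 genes from -0.21 to 0.96, -0.13 to 1.13 and -0.31 to 0.99 at 12 h. LOC101258345 and LOC101258632 in the NGSs at 48 h ranged from -0.29 to 0.27 and -0.33 to 0.26. Between GSs and NGSs, the 3 genes ranged from -0.0852 to 1.43, -0.77 to 0.83 and -0.45 to 1.11 at 6 h and from -0.64 to 0.72, -0.63 to 0.86 and -0.53 to 1.15 at 12 h, and LOC101258926 from -0.59 to 0.31 at 24 h.

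The causes were not tested. At 0 to 24 h, most libraries held fewer than 100 reads of each gene, which limits the low values.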
